A study of Homo sapiens with 18 samples.

Results

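The 33 genes described here encode enzymes that make or interconvert amino acids and carriers that move them across membranes, chosen by gene symbol among the 26485 genes listed in each of the 2 deposited tables. All 33 were listed, 21 enzymes and 12 carriers or carrier subunits. RNA was sequenced from PANC-1, an established epithelial line from a human pancreatic ductal carcinoma, in 18 libraries. In the siRNA set, cells were taken 72 h after transfection with PKR siRNA 1, PKR siRNA 2 or the Control siRNA, where siRNAs are duplexes that guide the cell to cleave a matching mRNA and PKR is the double-stranded RNA-activated kinase encoded by EIF2AK2. In the C16 table, cells were taken 72 h after addition of DMSO, the solvent, or of C16, a small-molecule inhibitor of PKR, at 400 nM or 800 nM. Each group had 3 libraries of poly(A) RNA. All libraries came from 1 cell line without any genetic change named in the labels, the siRNA libraries carry run 1 and the C16 libraries run 2 in their labels, and each table was normalized on its own, so groups were tested only within a table.

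Serine is made from a glycolytic intermediate by PHGDH, PSAT1 and PSPH, and the SHMT enzymes pass a carbon from serine to folate while forming glycine. Transaminases such as GOT1 and GPT2 move nitrogen between glutamate and other amino acids, and carriers of the SLC families bring in what the cell does not make. Many of these genes are known targets of ATF4, a transcription factor whose mRNA is translated more when a kinase, PKR among them, phosphorylates the initiation factor eIF2 alpha. In PANC-1 cells, the study saw no change in eIF2 alpha phosphorylation with PKR knockdown or the inhibitor.

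The libraries held 1512940 to 1873906 reads on genes after siRNA and 894145 to 1474308 after DMSO or C16. The members took 0.404% to 0.491% of these reads in the former and 0.4002% to 0.622% in the latter. EIF2AK2 stood at 95.5, 93.5 and 103 normalized counts in the 3 Control siRNA libraries, at 10.00, 13.6 and 9.65 under PKR siRNA 1 and at 7.96, 8.58 and 9.4 under PKR siRNA 2, so all 6 knockdown libraries lay below all controls. With C16 it differed little in level, with a log2 fold change of -0.22 ± 0.17 at 400 nM and 0.01 ± 0.17 at 800 nM (SE, n = 3 per group), and neither passed the test. The keratins KRT8, KRT18 and KRT19 were abundant in every library, while KRT7, at most 20.5 normalized counts, and CDH1, at most 61.7, were low. The summed level of the 6 epithelial markers moved with the groups, from 5358 to 5451 in the controls to 3052 to 3280 under PKR siRNA 1 and 9586 to 10233 under PKR siRNA 2, and from 7171 to 7572 with DMSO to 6033 to 6544 at 400 nM and 5172 to 5685 at 800 nM. KRT8, KRT18 and KRT19 made up nearly all of this sum. With C16, KRT18 did not fall with it, at 1381 to 1476 with DMSO, 1461 to 1586 at 400 nM and 1386 to 1474 at 800 nM. EPCAM did not follow the sum. EPCAM ran from 83.2 to 120.3 in the controls, 10.6 to 14.4 under PKR siRNA 1 and 9.4 to 11.9 under PKR siRNA 2, and from 16.2 to 19.8 with DMSO, 20.2 to 32.3 at 400 nM and 29.2 to 32.4 at 800 nM. KRT7 also lay below the controls under PKR siRNA 2, at 1.99 to 6.58 against 15.0 to 20.5. Of 11 markers of other cell types, 6 were at 0 in every siRNA library and 9 in every C16 library, among them PTPRC, DCN, CPA1, INS, GCG and ALB in both tables. The rest of that list was nearly all CD68 and COL1A1, and its sum ran from 252 to 262 in the controls, 234 to 296 under PKR siRNA 1, 307 to 311 under PKR siRNA 2, 188 to 212 with DMSO, 273 to 301 at 400 nM and 177 to 197 at 800 nM. These sums join 2 markers whose ranges lay on opposite sides of the control range under PKR siRNA 1 and at 800 nM. CD68 ran from 147 to 169 in the controls, 205 to 273 under PKR siRNA 1 and 194 to 204 under PKR siRNA 2, and from 51.0 to 57.3 with DMSO, 141 to 171 at 400 nM and 104 to 123 at 800 nM. COL1A1 ran from 82.1 to 109 in the controls, 21.8 to 28.9 under PKR siRNA 1 and 106 to 115 under PKR siRNA 2, and from 130.2 to 161 with DMSO, 103 to 160 at 400 nM and 58.2 to 92.8 at 800 nM. The part of these shifts in the results on the members was not tested. In bulk RNA, a change in each cell and a change in the number of cells that express a gene cannot be told apart.

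Levels can be set side by side between genes once divided by exon length. In the Control siRNA libraries the highest members were SLC7A5 at 253 ± 4.67 normalized counts per kilobase (SD, n = 3), SLC38A2 at 200.2 ± 1.35 and MTHFD2 at 159.6 ± 11.8. SLC7A5 carries large neutral amino acids such as leucine, SLC38A2 small neutral ones, and MTHFD2 is a mitochondrial folate enzyme. SLC3A2 at 144 ± 10.7 and PYCR1 at 143 ± 5.39 followed and did not differ beyond their spread. With DMSO the order began with MTHFD2 at 144 ± 12.0, followed by SLC38A2 at 110.03 ± 6.30 and PYCR1 at 107.6 ± 8.70, the last pair within their spread. At the low end, CBS, CTH and SLC43A1 had fewer than 10 normalized counts on average in both tables and were not tested, and BCAT1 was tested in the C16 table only. CBS and CTH, the enzymes of transsulfuration, ranged from 0.761 to 9.58 and from 1.07 to 11.7 normalized counts over the 18 libraries. The listed exons of CBS lie at separate loci that span chr21:6444869-43076362. How reads matching more than a single locus were counted is not given, so the low CBS level is uncertain. SLC43A1, a carrier of branched-chain amino acids, ranged from 0 to 5.32, with libraries at 0 in 4 groups.

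The response element that ATF4 shares with C/EBP partners contains the letters TGATGNAA. These were sought on either strand, and no other motif was sought, in windows of 250 bases before to 50 bases after each start site in the RefSeq promoter table (GRCh38.p14). The table held windows for 27 of the 33 members, and PSPH, SHMT2, PYCR1, GPT2, BCAT2 and SLC7A11 were without an entry. A match stood in 11 of 47 member windows (23.4%), in 9 of 27 genes (33.3%), against 3.62% of all 35116 windows and 4.46% of all genes with a window. Among genes tested after siRNA and after C16, the shares were 1.85% and 1.87% of windows and 2.49% and 2.53% of genes. The 9 genes comprised 5 carriers and 4 enzymes, and 30 bases around each match are printed here on the strand of the gene. The capitals mark the match, which reads as the reverse complement where it lies on the other strand (GOT1, SLC1A4, SLC3A2). The first base of the match lies at -68 from the start site of its window in ASNS, -48 in BCAT1, -198 in GOT1, -7 in SLC1A4, -97 in SLC1A5, -4 in SLC38A1, 37 in SLC3A2 and 7 in SLC7A1, and the MTHFD1L match lies in 3 overlapping windows, at -129, -90 and 24. ASNS, BCAT1, MTHFD1L, SLC1A4, SLC1A5, SLC38A1 and SLC3A2 also have windows at other start sites without a match. In SLC1A5 the matched window lies inside the gene, downstream of windows without a match. Of the members with a window that were tested, 7 of 9 with a match and 4 of 15 without one rose at 400 nM, 6 and 3 rose at 800 nM, 4 of 8 and 2 of 15 rose under PKR siRNA 1, and 0 and 3 rose under PKR siRNA 2. Of all genes tested, 7.08%, 11.6%, 8.53% and 10.8% rose in the same order. The share of all genes with a match that rose was not counted. SHMT2, GPT2 and SLC7A11 rose at both C16 doses but had no window, so they are in neither group. A match is a string of letters in a window, binding was not measured, and these counts were not tested.
ASNS (chr7:97872458-97872487, minus strand): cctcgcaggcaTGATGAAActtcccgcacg
BCAT1 (chr12:24949131-24949160, minus strand): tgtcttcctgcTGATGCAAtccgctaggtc
GOT1 (chr10:99430804-99430833, minus strand): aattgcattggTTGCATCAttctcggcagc
MTHFD1L (chr6:150866346-150866375, plus strand): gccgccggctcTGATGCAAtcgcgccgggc
SLC1A4 (chr2:64989381-64989410, plus strand): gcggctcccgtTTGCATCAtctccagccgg
SLC1A5 (chr19:46784893-46784922, minus strand): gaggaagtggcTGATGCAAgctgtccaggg
SLC38A1 (chr12:46266502-46266531, minus strand): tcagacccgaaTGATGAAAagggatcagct
SLC3A2 (chr11:62881719-62881748, plus strand): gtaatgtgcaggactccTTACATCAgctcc
SLC7A1 (chr13:29595663-29595692, minus strand): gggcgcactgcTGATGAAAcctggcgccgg

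Under PKR siRNA 1, 7 of the 29 members tested rose and 4 fell, and under PKR siRNA 2, 3 rose and 4 fell. PHGDH, SHMT2, MTHFD1L, MTHFD2, GOT1, SLC7A1 and SLC1A4 rose under PKR siRNA 1, whereas MTHFD2, ASS1 and SLC38A2 rose under PKR siRNA 2. A gene was counted as risen or fallen when its Benjamini-Hochberg adjusted p over all genes of the table was under 0.05 (limma, two-sided) and its fold change was over 1.5. Of all 10593 genes tested, 8.53% rose and 12.6% fell under PKR siRNA 1, and 10.8% rose and 12.8% fell under PKR siRNA 2. The members' shares were 24.1% up and 13.8% down under PKR siRNA 1, and 10.3% up and 13.8% down under PKR siRNA 2. The share that rose under PKR siRNA 1 stood above that of all genes, and the other shares lay close to it. The median log2 fold change of the members tested was 0.23 under PKR siRNA 1 and 0.03 under PKR siRNA 2, against -0.01 over all genes in both comparisons. Both comparisons used the same 3 control libraries.

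With C16, nearly all members that changed were raised. At 400 nM, 14 of 30 members tested rose and 1 fell, and at 800 nM, 12 rose and 1 fell. Of all 9963 genes tested, 7.08% rose and 5.45% fell at 400 nM and 11.6% rose and 14.1% fell at 800 nM, against 46.7% and 40% of the members upward. The member that fell at both doses was ASS1, which joins citrulline and aspartate on the way to arginine. The median log2 fold change of the members was 0.52 at 400 nM and 0.49 at 800 nM, against 0.00 over all genes. Of the carriers tested, 8 of 11 rose at 400 nM and 6 of 11 at 800 nM, beside 6 of 19 enzymes at each dose, a difference that was not tested. Both doses were set against the same 3 DMSO libraries.

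**Figure D1:**
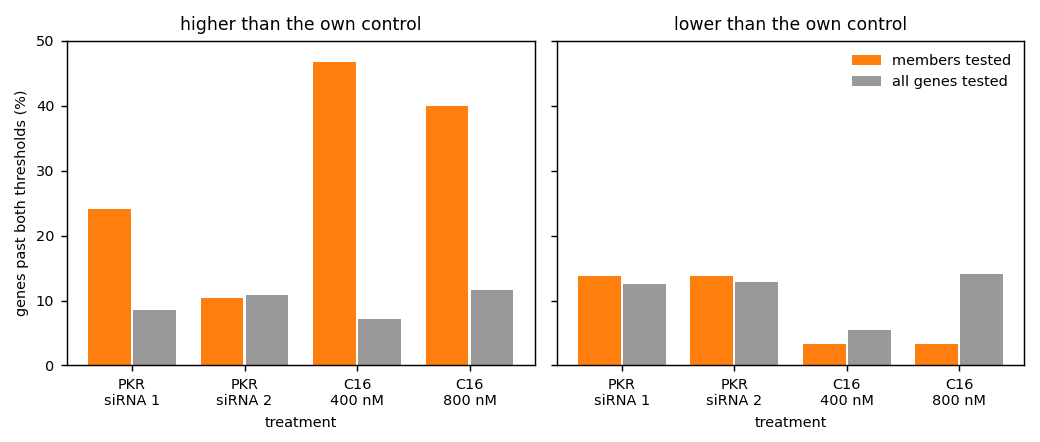
Share of genes past both thresholds (y axis, %) for each treatment (x axis), higher on the left and lower on the right, for the members tested (orange) and all genes tested (grey). With C16, 46.7% and 40% of the members stood in the higher class against 7.08% and 11.6% of all genes, whereas the shares under PKR siRNA 2 were 10.3% and 10.8%.

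**Figure D2:**
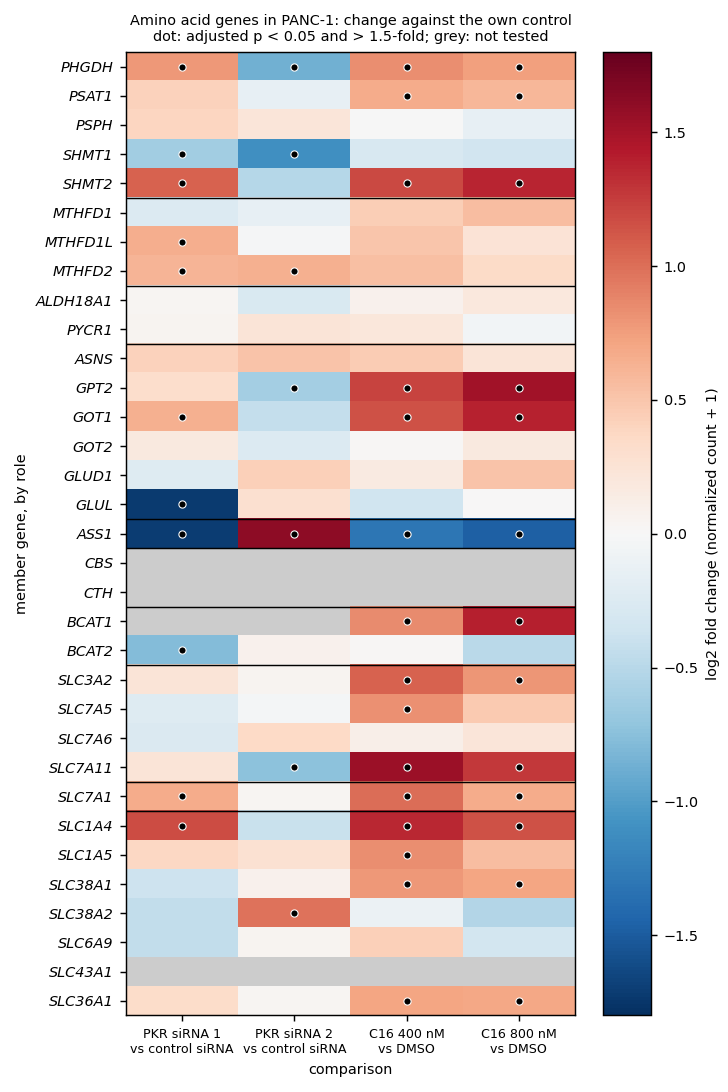
Log2 fold change of each member (rows, grouped by role) against its own control in the 4 treatments (columns), red for higher and blue for lower, with a dot where both thresholds were passed and grey where the gene was not tested. Red with dots runs down both C16 columns, PHGDH and ASS1 are dotted in all 4 columns, and ASS1 is blue in all but the PKR siRNA 2 column.

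Of the 33 members, 2 passed both thresholds in all 4 comparisons with the own control (PHGDH and ASS1), 6 in 3, 7 in 2, 6 in 1 and 12 in none. The 12 include CBS, CTH and SLC43A1, which were not tested, and BCAT1, called in 2, was tested with C16 only. The matching shares of all genes were not counted. For each of the 60 calls made over the 6 comparisons, the 3 libraries of one group all lay above or all below those of the other. The exact permutation test of the normalized counts gave p = 0.1 for each, which is the smallest value that 3 against 3 libraries allow. Non-overlap alone was common, with 24.5% of all genes tested entirely above and 27.2% entirely below the controls under PKR siRNA 1, beside 14 and 9 of the 29 members. The shares of all genes and the counts of members were 25.9% (10) above and 28.4% (9) below under PKR siRNA 2, 29.8% (9) and 30.9% (14) for PKR siRNA 2 against PKR siRNA 1, 20.4% (20) and 19.1% (1) at 400 nM, 26.1% (18) and 25.7% (3) at 800 nM, and 13.4% (4) and 17% (9) for 800 nM against 400 nM.

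Among the serine and glycine enzymes, PHGDH and SHMT2 followed a shared order of groups in the siRNA table, highest under PKR siRNA 1 and lowest under PKR siRNA 2. PHGDH, the first and committed enzyme of serine synthesis (chr1:119711796-119744226), stood at 43.1, 49.4 and 57.8 normalized counts under Control siRNA, 94.4, 81.6 and 82.0 under PKR siRNA 1 and 24.9, 31.1 and 25.4 under PKR siRNA 2. The 3 groups did not overlap, and the log2 fold change was 0.77 ± 0.17 under PKR siRNA 1 (SE; adjusted p = 9.43e-05) and -0.86 ± 0.17 under PKR siRNA 2 (adjusted p = 1.43e-05). SHMT2, the mitochondrial serine hydroxymethyltransferase (chr12:57229573-57234935), stood at 144, 117 and 111 under Control siRNA, 267, 266 and 239 under PKR siRNA 1 and 84.5, 86.9 and 87.5 under PKR siRNA 2. It rose under PKR siRNA 1 (log2 fold change 1.05 ± 0.10, adjusted p = 3.86e-14), and under PKR siRNA 2 all libraries were below the controls by less than 1.5-fold (-0.51 ± 0.10, adjusted p = 3.37e-05). SHMT1, the cytosolic isozyme, fell with both siRNAs, from 52.4, 56.9 and 50.2 to 33.3, 35.4 and 33.8 and 20.9, 32.2 and 20.7. Its log2 fold change was -0.62 ± 0.20 under PKR siRNA 1 (adjusted p = 0.00728) and -1.11 ± 0.20 under PKR siRNA 2 (adjusted p = 2.15e-06). Without the second control library the PKR siRNA 1 value was -0.57, under the fold threshold, and 7.72% of the SHMT1 exon bases overlap SMCR8 on the other strand. PSAT1, which transfers the amino group in serine synthesis, stood at 175, 144 and 182, 229, 209.5 and 225 and 151, 145 and 151 in the same group order. Its PKR siRNA 1 libraries were all above the controls, but by less than 1.5-fold (0.41 ± 0.10, adjusted p = 0.000234), and the PKR siRNA 2 libraries overlapped them.

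With C16, PHGDH, SHMT2 and PSAT1 rose at both doses, and SHMT1 and PSPH did not pass the test. PHGDH rose from 154, 146 and 152 with DMSO to 289, 261 and 262 at 400 nM and 271, 251 and 232 at 800 nM, log2 fold changes of 0.84 ± 0.09 and 0.74 ± 0.09 (SE; adjusted p = 4.39e-11 and 1.11e-09). SHMT2 rose from 83.6, 83.8 and 81.5 to 184, 196 and 193 and 219, 227 and 206, by 1.19 ± 0.10 and 1.38 ± 0.10 on the log2 scale (adjusted p = 9.83e-15 and 1.23e-17). PSAT1 rose from 200.2, 203 and 221 to 355, 284 and 363 and 312, 319 and 316, by 0.67 ± 0.09 and 0.60 ± 0.09 (adjusted p = 1.08e-08 and 7.12e-08). In these 3 genes every C16 library lay above every DMSO library. The PSAT1 value at 800 nM sat just over the fold threshold and was 0.57 without the first DMSO library and 0.58 without the second. SHMT1, at 41.8, 25.7 and 25.1 with DMSO, 20.2, 25.4 and 28.7 at 400 nM and 34.3, 24.4 and 15.3 at 800 nM, overlapped between all groups. PSPH, the phosphatase that completes serine synthesis, passed both thresholds in none of the comparisons, with means from 80.6 under Control siRNA to 105.2 under PKR siRNA 1 in the siRNA table and from 98.5 at 800 nM to 109 with DMSO in the C16 table.

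Of the 3 folate enzymes that carry one-carbon units, MTHFD2, the mitochondrial dehydrogenase and cyclohydrolase, was the member that rose with both siRNAs. It stood at 345, 353 and 395 normalized counts under Control siRNA, 556, 559 and 552 under PKR siRNA 1 and 568, 583 and 549 under PKR siRNA 2, log2 fold changes of 0.61 ± 0.07 and 0.64 ± 0.07 (SE; adjusted p = 8.11e-13 and 1.12e-13). The libraries of the 2 siRNAs overlapped each other and lay above the controls, and without the first control library the PKR siRNA 1 value was 0.57, under the fold threshold. In the C16 table MTHFD2 stood at 358, 324 and 303 with DMSO, 529.6, 424 and 478 at 400 nM and 439.8, 411 and 403 at 800 nM. All C16 libraries were above DMSO, by 0.54 ± 0.08 and 0.35 ± 0.08 on the log2 scale, under the fold threshold at both doses, though the 400 nM value passed it without the second 400 nM library (0.62) or the first DMSO library (0.60). MTHFD1L, the mitochondrial formate-producing synthetase, rose under PKR siRNA 1 and passed both thresholds in none of the other treatments. It went from a mean of 168 ± 15.7 (SD, n = 3) to 265 ± 17.7, a log2 fold change of 0.65 ± 0.09. Its PKR siRNA 2 mean was 165 ± 5.01, and the difference between the siRNAs was -0.68 ± 0.09 (adjusted p = 8.16e-10). MTHFD1, the cytosolic trifunctional enzyme, passed the adjusted p but not the fold at both C16 doses (0.44 ± 0.09 and 0.56 ± 0.09). At 800 nM it passed both without the third 800 nM or the third DMSO library (0.60 in each case).

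Among the enzymes of glutamate, aspartate, alanine, asparagine and glutamine, the transaminases GOT1 and GPT2 had the largest rises with C16. GOT1, which makes aspartate from glutamate and oxaloacetate or the reverse (chr10:99396870-99430773), stood at 97.2, 80.9 and 83.0 normalized counts with DMSO, 189, 213 and 177 at 400 nM and 218, 221 and 244 at 800 nM. The log2 fold changes were 1.14 ± 0.10 and 1.38 ± 0.10 (SE; adjusted p = 1.52e-13 and 4.03e-17), and every C16 library lay above DMSO. The GOT1 control siRNA libraries stood at 187, 175 and 194, those of PKR siRNA 1 at 298, 278 and 291 and those of PKR siRNA 2 at 126, 143 and 142. The groups were again separate, with PKR siRNA 1 above the controls (0.64 ± 0.09, adjusted p = 7.68e-09) and PKR siRNA 2 below them by less than 1.5-fold (-0.44 ± 0.09, adjusted p = 3.49e-05). Its promoter window holds one of the matches shown above.

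GPT2, the mitochondrial alanine transaminase, rose from 35.0, 28.6 and 40.4 with DMSO to 88.3, 78.4 and 76.6 at 400 nM and 113, 93.8 and 93.5 at 800 nM. These were log2 fold changes of 1.21 ± 0.15 and 1.51 ± 0.15 (SE; adjusted p = 2.32e-09 and 9.81e-13), with no overlap with DMSO. In the siRNA table it stood at 43.1, 44.0 and 43.6 under Control siRNA, 51.1, 61.7 and 52.1 under PKR siRNA 1 and 30.8, 28.95 and 25.4 under PKR siRNA 2. The PKR siRNA 1 libraries were above the controls without passing the test (0.32 ± 0.18, adjusted p = 0.142), and PKR siRNA 2 lowered it (-0.61 ± 0.18, adjusted p = 0.00396). The call under PKR siRNA 2 was lost without the third of its libraries (-0.53).

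GLUL, glutamine synthetase (chr1:182378093-182392206), fell under PKR siRNA 1, from 63.7, 73.1 and 69.2 normalized counts under Control siRNA to 22.2, 18.1 and 20.3. This was a log2 fold change of -1.72 ± 0.17 (SE; adjusted p = 1.19e-14), a mean 0.294 times that of the controls. Under PKR siRNA 2 the libraries stood at 78.6, 87.9 and 86.5, all above the controls without passing the test (0.29 ± 0.17, adjusted p = 0.14), and the 2 siRNAs differed by 2.01 ± 0.17 (adjusted p = 4.79e-18). In the C16 table GLUL stood at 58.3, 68.6 and 51.0 with DMSO, 45.7, 40.4 and 52.1 at 400 nM and 71.6, 47.5 and 60.1 at 800 nM, with overlapping groups. ASNS, asparagine synthetase, passed the adjusted p in all 4 treatments but stayed under 1.5-fold, with log2 fold changes of 0.41 ± 0.09, 0.51 ± 0.09, 0.46 ± 0.09 and 0.23 ± 0.09 for PKR siRNA 1, PKR siRNA 2, 400 nM and 800 nM. It is the gene best known as an amino acid response target, and a match stands in some but not all of its promoter windows. GLUD1, glutamate dehydrogenase, had means of 375 ± 12.4 under Control siRNA, 319 ± 18.1 under PKR siRNA 1 and 506 ± 14.2 under PKR siRNA 2 (SD, n = 3), and passed both thresholds between the siRNAs alone (0.66 ± 0.07). GOT2, the mitochondrial partner of GOT1, and the proline enzymes ALDH18A1 and PYCR1 passed both thresholds in none of the 6 comparisons. Their log2 fold changes against the own control ran from -0.27 for ALDH18A1 to 0.23 for PYCR1, both under PKR siRNA 2.

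ASS1, argininosuccinate synthase (chr9:130444707-130501274), had the widest span between the siRNAs of all members. It stood at 13.3, 16.1 and 12.3 normalized counts under Control siRNA, 5.55, 2.72 and 2.89 under PKR siRNA 1 and 40.8, 46.1 and 46.1 under PKR siRNA 2. The groups did not overlap, and the log2 fold change was -1.70 ± 0.31 under PKR siRNA 1 (SE; adjusted p = 3.57e-06) and 1.61 ± 0.31 under PKR siRNA 2 (adjusted p = 9.71e-06). Directly compared, the PKR siRNA 2 mean was 11.9 times the PKR siRNA 1 mean (log2 fold change 3.31 ± 0.31, adjusted p = 1.45e-15). With C16 it fell from 26.2, 24.8 and 24.4 with DMSO to 12.8, 5.77 and 11.7 at 400 nM and 5.04, 13.4 and 8.59 at 800 nM, by -1.30 ± 0.33 and -1.47 ± 0.33 on the log2 scale (adjusted p = 0.00197 and 0.000215). These are low counts, on which the added 1 understates fold changes, and RefSeq lists 14 ASS1 pseudogenes that could share reads. The same limit holds for other members, as 11 have pseudogenes listed, among them MTHFD2 and GOT2 (7 each), GLUL and GLUD1 (6 each), ASNS (5) and PSAT1 (4).

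The branched-chain aminotransferases are a pair that opens the breakdown of leucine, isoleucine and valine, BCAT1 in the cytosol and BCAT2 in mitochondria. BCAT1 rose with C16, from 14.6, 16.2 and 16.0 with DMSO to 24.5, 31.1 and 31.9 at 400 nM and 62.5, 30.5 and 41.0 at 800 nM, log2 fold changes of 0.86 ± 0.23 and 1.40 ± 0.23 (SE; adjusted p = 0.00381 and 1.2e-06). All C16 libraries lay above DMSO, and the first 800 nM library stood well above the other two. In the siRNA table its libraries ranged from 4.29 to 11.1 and it was not tested. BCAT2 fell under PKR siRNA 1, from 75.1 ± 1.17 to 43.3 ± 4.59 (mean ± SD, n = 3; log2 fold change -0.78 ± 0.15, adjusted p = 9.14e-06), and was 79.7 ± 14.0 under PKR siRNA 2. At 800 nM it was lower by less than 1.5-fold (-0.48 ± 0.20, adjusted p = 0.0413).

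**Figure D3:**
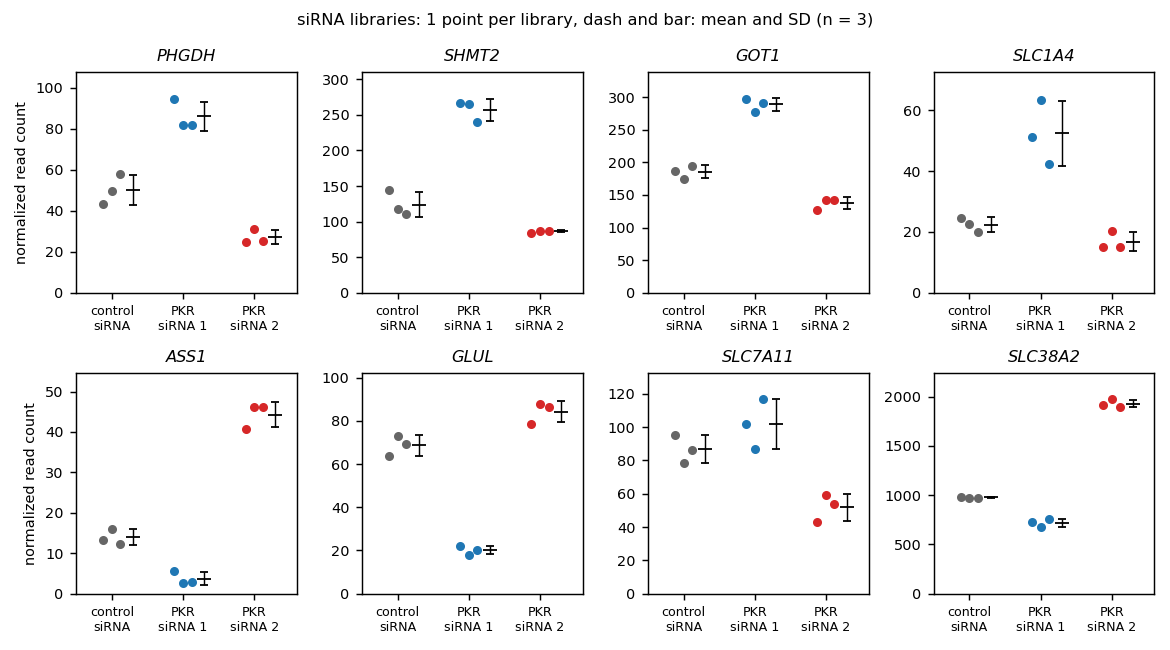
Normalized read counts (y axes, from 0) of 8 members in each library of the siRNA table, by group (x axes), with the mean and SD of 3 libraries as a dash and bar. PHGDH, SHMT2 and GOT1 are highest under PKR siRNA 1 and lowest under PKR siRNA 2, whereas ASS1, GLUL and SLC38A2 have the opposite order.

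SLC3A2 is the heavy chain that brings the light chains SLC7A5, SLC7A6 and SLC7A11 to the plasma membrane, where SLC7A11 exchanges cystine for glutamate. SLC7A11 (chr4:138164094-138242349) rose from 48.6, 43.8 and 38.8 normalized counts with DMSO to 158, 101 and 131 at 400 nM and 125, 102 and 94.5 at 800 nM. With log2 fold changes of 1.54 ± 0.14 and 1.27 ± 0.14 (SE; adjusted p = 1.79e-13 and 4.56e-11), it had the largest rise of the members at 400 nM. SLC3A2 rose from 158, 174 and 176 to 388, 334 and 340.4 and 289, 327 and 266, by 1.06 ± 0.09 and 0.79 ± 0.09 (adjusted p = 6.96e-15 and 7.55e-11). For both genes the C16 libraries lay above all DMSO libraries. SLC7A5, the leucine carrier, rose at 400 nM (0.83 ± 0.07, adjusted p = 9.07e-15; mean 449 ± 32.4 to 798 ± 51.8, SD, n = 3), and at 800 nM it passed the adjusted p but not the fold (0.47 ± 0.07, adjusted p = 1.04e-07). SLC7A6, which exchanges cationic for neutral amino acids, did not pass the test with C16 (0.11 ± 0.13 and 0.22 ± 0.13), and 12.4% of its exon bases overlap SLC7A6OS on the other strand.

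With the siRNAs, SLC7A11 was the member of this set that passed both thresholds against the controls. SLC7A11 stood at 95.5, 78.4 and 86.3 under Control siRNA, 102, 87.1 and 117 under PKR siRNA 1 and 42.8, 59.0 and 53.6 under PKR siRNA 2. It fell under PKR siRNA 2 (log2 fold change -0.74 ± 0.14, SE, adjusted p = 6.83e-06), and the PKR siRNA 1 libraries overlapped the controls. SLC3A2 stood at 451, 389 and 414, 501, 479.8 and 492 and 437, 418 and 437 in the same group order. Its log2 fold change was 0.23 ± 0.07 under PKR siRNA 1 (adjusted p = 0.00291, under 1.5-fold) and 0.05 ± 0.07 under PKR siRNA 2, where the libraries overlapped the controls. SLC7A5 was -0.23 ± 0.05 under PKR siRNA 1 and -0.03 ± 0.05 under PKR siRNA 2, under the fold threshold in each. SLC7A6 passed both thresholds between the siRNAs alone (0.62 ± 0.11, adjusted p = 6.15e-07), a call lost without the first PKR siRNA 2 library (0.57) or the third PKR siRNA 1 library (0.56).

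SLC7A1, the main carrier of arginine and lysine (chr13:29509414-29595688), rose under PKR siRNA 1 and with both C16 doses. It stood at 236, 244 and 251 normalized counts under Control siRNA, 402, 379 and 388 under PKR siRNA 1 and 257, 235 and 257 under PKR siRNA 2. Only the PKR siRNA 1 libraries stood clear of the controls (log2 fold change 0.67 ± 0.08, SE, adjusted p = 8.43e-12). In the C16 table it stood at 138, 120.0 and 158 with DMSO, 265, 292 and 277 at 400 nM and 235, 196 and 231 at 800 nM, with log2 fold changes of 1.01 ± 0.10 and 0.67 ± 0.10 (adjusted p = 1.29e-12 and 7.14e-08). The 800 nM call was lost without the second DMSO library (0.57).

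Of the neutral carriers, SLC1A4, which exchanges alanine, serine and cysteine (chr2:64988445-65023866), shared this pattern. Its libraries stood at 24.6, 22.6 and 19.9 under Control siRNA, 51.1, 63.5 and 42.5 under PKR siRNA 1 and 14.9, 20.4 and 15.0 under PKR siRNA 2. It rose under PKR siRNA 1 (log2 fold change 1.18 ± 0.23, SE, adjusted p = 9.9e-06), and the PKR siRNA 2 libraries overlapped the controls. With C16 it rose from 48.6, 32.4 and 37.3 to 120.2, 83.0 and 104 at 400 nM and 91.8, 78.0 and 92.6 at 800 nM, by 1.36 ± 0.15 and 1.14 ± 0.15 (adjusted p = 1.04e-10 and 6.16e-09). The glutamine carrier SLC1A5, its paralog, rose at 400 nM (0.84 ± 0.09, adjusted p = 7.68e-12). At 800 nM SLC1A5 passed the adjusted p but not the fold (0.55 ± 0.09), except without the third 800 nM library (0.64).

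SLC38A1 and SLC38A2 are sodium-coupled carriers of glutamine and small neutral amino acids that lie close together on chromosome 12. SLC38A1 rose with C16, from 338, 396 and 389 to 696, 603 and 634 at 400 nM and 602, 639.8 and 593 at 800 nM, by 0.78 ± 0.07 and 0.71 ± 0.07 (SE; adjusted p = 3.03e-13 and 4.05e-12). In the siRNA table it stood at 638, 661 and 671, 499.8, 494 and 532 and 719, 712 and 654 in the order controls, siRNA 1, siRNA 2, below the controls under PKR siRNA 1 by less than 1.5-fold. SLC38A2 rose under PKR siRNA 2, from a mean of 978 ± 6.6 (SD, n = 3) to 1929.5 ± 38.9, a log2 fold change of 0.98 ± 0.05 (adjusted p = 1.56e-28). Under PKR siRNA 1 it averaged 717 ± 41.7, lower by less than 1.5-fold (-0.45 ± 0.05, SE, adjusted p = 9.26e-12). With C16 it averaged 499 ± 30.1 at 400 nM and 371 ± 26.4 at 800 nM against 537 ± 30.8 with DMSO. At 400 nM it did not pass the test (-0.11 ± 0.07, adjusted p = 0.301). At 800 nM it was lower, past the adjusted p but not the fold.

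SLC36A1, a proton-coupled carrier of small amino acids found on lysosomes, stood at 18.5, 29.5 and 33.5 with DMSO, 44.7, 43.8 and 42.6 at 400 nM and 47.4, 48.7 and 35.3 at 800 nM. It passed both thresholds at each dose (0.71 ± 0.20 and 0.70 ± 0.20, SE; adjusted p = 0.00591 and 0.00362), and both calls rested on the low first DMSO library. Without it the values were 0.46 (adjusted p = 0.109) and 0.45 (adjusted p = 0.0777). In the siRNA table it stood at 60.6, 50.5 and 62.6, 58.9, 73.5 and 88.8 and 51.7, 75.1 and 52.7, with overlapping groups. SLC6A9, a glycine carrier, passed the test in none of the 6 comparisons and ranged from 7.31 to 28.95 normalized counts over the 18 libraries.

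**Figure D4:**
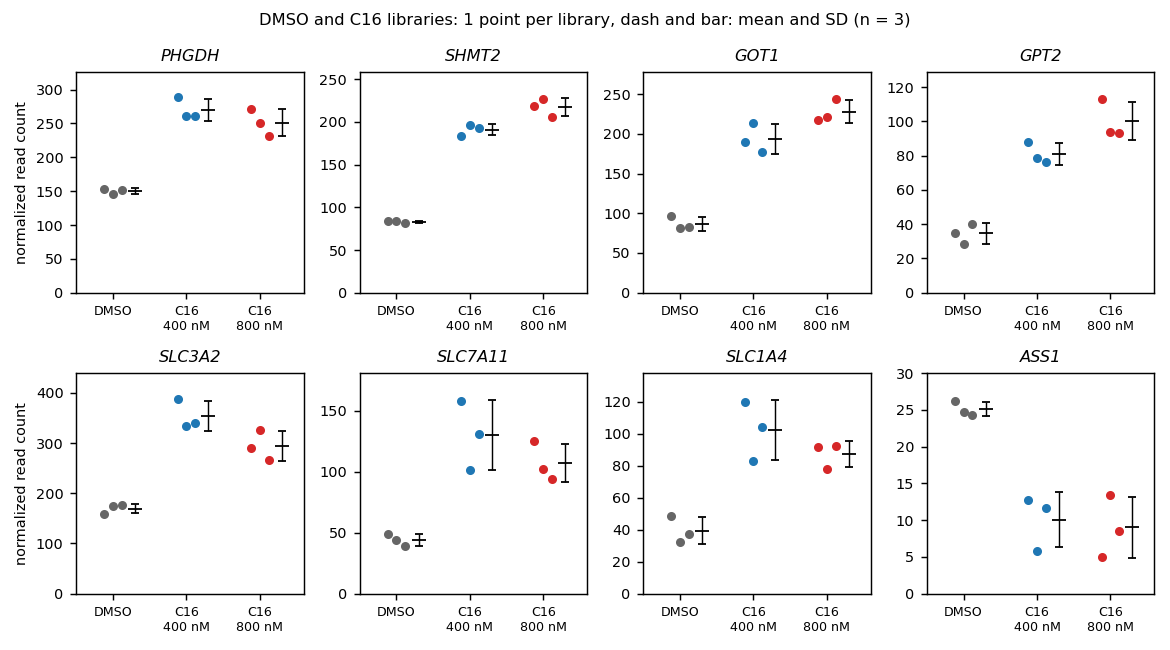
Normalized read counts (y axes, from 0) of 8 members in each library of the C16 table, by group (x axes), with the mean and SD of 3 libraries as a dash and bar. In 7 of the panels both C16 groups lie above DMSO, and in the ASS1 panel both lie below it.

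Both siRNAs lowered EIF2AK2, with a difference between them of -0.31 ± 0.25 on the log2 scale (SE; 95% interval -0.80 to 0.18, adjusted p = 0.282). All its PKR siRNA 2 libraries lay below all its PKR siRNA 1 libraries. Of the 29 members tested, 14 differed between the siRNAs. Under PKR siRNA 2 against PKR siRNA 1, 6 members were higher (20.7%) and 8 lower (27.6%), beside 16.4% and 15.3% of all genes and 31.7% in either direction. In 9 of the 29 members (31%), all libraries of one siRNA lay above and all of the other below the controls, with an adjusted p under 0.05 between the siRNAs, beside 11.7% of all genes. The lower ones were PHGDH, SHMT2, MTHFD1L, GPT2, GOT1, SLC7A11, SLC7A1 and SLC1A4, from -0.64 for SLC7A1 to -1.63 for PHGDH. The higher ones were GLUD1, GLUL, ASS1, BCAT2, SLC7A6 and SLC38A2, from 0.62 for SLC7A6 to 3.31 for ASS1. The median log2 fold change of the members was -0.16, against -0.01 over all genes.

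None of the 30 members passed both thresholds between 800 nM and 400 nM in the limma fit, where 1.13% of all genes were higher and 3.95% lower, and 1 did so by edgeR (BCAT1). By the adjusted p alone 6 members differed (20.0%), beside 14.3% of all genes. GLUD1 was higher at 800 nM (0.34 ± 0.08, SE, adjusted p = 0.00208). The carriers SLC38A2 (-0.43 ± 0.07), SLC7A5 (-0.35 ± 0.07), SLC7A1 (-0.33 ± 0.10), SLC1A5 (-0.28 ± 0.09) and SLC3A2 (-0.27 ± 0.09) were lower, with adjusted p from 2.99e-05 to 0.0311. All other members had adjusted p over 0.05, which does not show that they were equal. For BCAT1 the 95% interval reached from 0.08 to 1.01, and for SLC6A9 from -1.41 to -0.08, while for PHGDH it was -0.29 to 0.08. Without the second 800 nM library BCAT1 passed both thresholds (0.79), and without the first 800 nM library SLC6A9 did (-1.09).

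**Figure D5:**
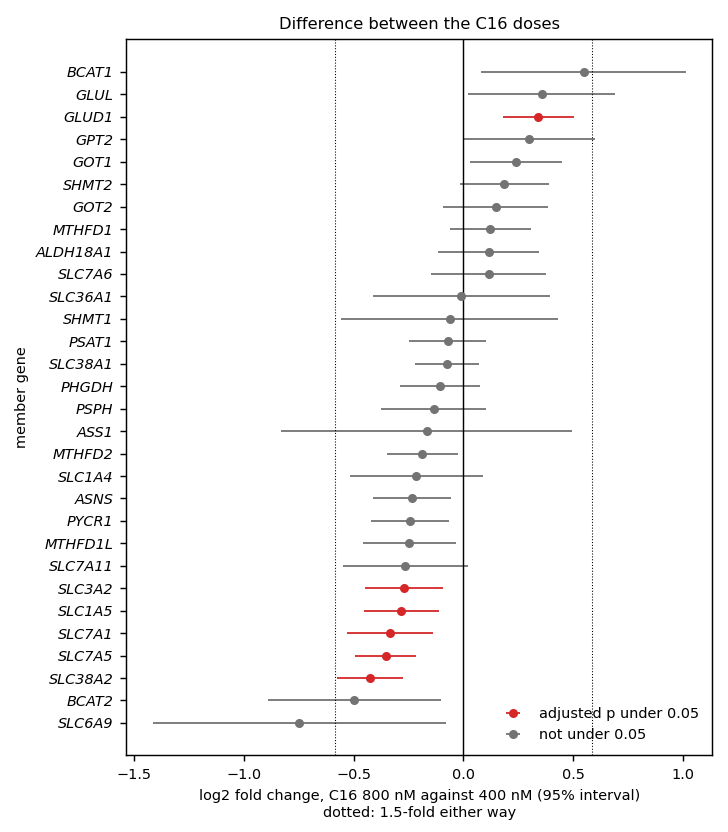
Log2 fold change of each tested member between C16 at 800 nM and 400 nM (x axis, points) with its 95% interval (bars), sorted by value, red where the adjusted p was under 0.05 and with dotted lines at 1.5-fold. GLUD1 is red on the higher side and 5 carriers are red on the lower side, and no red point lies beyond a dotted line.

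Across the tables, which have separate controls, 29 members were tested in both. Of the 7 that rose under PKR siRNA 1, 5 also rose at 400 nM, where 13 of the 29 did, and at 800 nM, where 11 did. They were PHGDH, SHMT2, GOT1, SLC7A1 and SLC1A4, or 71.4% of the siRNA 1 list, 38.5% of the 400 nM list and 45.5% of the 800 nM list. The overlap over all genes was not counted, and the overlap of the members was not tested. ASS1 fell in all 3 conditions. Of the 3 members that rose under PKR siRNA 2, 0 rose with C16 and 1 (ASS1) fell at both doses, and of the 4 that fell under PKR siRNA 2, 3 rose at both doses (PHGDH, GPT2 and SLC7A11). Between the tables, the sequencing run and the treatment type cannot be told apart.

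Of 57 other genes of amino acid metabolism and transport, 56 were listed, of which 26 had enough reads for a test after siRNA and 24 after C16. Under PKR siRNA 1, 3 rose and 2 fell, led by the mitochondrial carriers SLC25A44 (0.80 ± 0.11, SE) and SLC25A32 (0.69 ± 0.15) upward and SLC38A9 (-1.30 ± 0.33) and SLC43A2 (-0.76 ± 0.16) downward. Under PKR siRNA 2, 2 rose, SLC43A2 (0.73 ± 0.16) and SLC25A15 (0.61 ± 0.16), and SLC25A12 fell (-0.75 ± 0.15). At 400 nM of C16, the mitochondrial folate enzyme ALDH1L2 (1.48 ± 0.31) and SLC25A12 (0.72 ± 0.17) rose and SLC43A2 fell (-0.82 ± 0.17). At 800 nM, 4 rose, among them ASNSD1 (0.79 ± 0.14), and 2 fell, SLC43A2 (-1.25 ± 0.17) and MAT2A (-0.83 ± 0.07), the enzyme that makes S-adenosylmethionine. Of 13 genes of the ATF4 network, 10 of 12 tested rose and 0 fell under PKR siRNA 1, 6 rose and 2 fell under PKR siRNA 2, 8 of 13 rose and 0 fell at 400 nM, and 9 rose and 3 fell at 800 nM. Of all genes tested, 8.53% rose and 12.6% fell under PKR siRNA 1, and 10.8% and 12.8% under PKR siRNA 2. With C16 these shares were 7.08% and 5.45% at 400 nM and 11.6% and 14.1% at 800 nM. For the other pathway genes they were 11.5% and 7.69%, 7.69% and 3.85%, 8.33% and 4.17%, and 16.7% and 8.33% in the same order. Neither list was tested as a set. ATF4 mRNA itself rose with both siRNAs (1.16 ± 0.07 and 0.81 ± 0.07) and at 400 nM (0.70 ± 0.08), and at 800 nM its value was 0.16 ± 0.08.

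Summed over all 33 members, the level was 7101 ± 90.5 normalized counts under Control siRNA (SD, n = 3), 7403 ± 98.8 under PKR siRNA 1 and 8401 ± 49.2 under PKR siRNA 2, where SLC38A2 alone was 952 above its control mean. It was 4522 ± 65.6 with DMSO, 6684 ± 276 at 400 nM and 6122 ± 188 at 800 nM. All C16 libraries lay above DMSO in this sum. In the C16 table the carriers alone summed to 2086 ± 79.4, 3333 ± 152 and 2778 ± 122, and the enzymes to 2436 ± 78.4, 3351 ± 129 and 3343 ± 93.7. After siRNA the 2 parts moved apart under PKR siRNA 1. The carriers summed to 4090 ± 22.1 under Control siRNA, 3853 ± 62.1 under PKR siRNA 1 and 5144 ± 25.1 under PKR siRNA 2. The enzymes summed to 3010 ± 76.5, 3550 ± 55.8 and 3257 ± 25.4 in the same order.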

How the data were processed

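RNA-seq of 18 libraries was analysed from 2 deposited tables. Per the labels, directional poly(A) libraries were prepared. Also per the labels, the authors mapped reads to hg38 with TopHat, counted them with featureCounts and normalized them by TMM in TCC. The annotation, the strand setting and the versions are not given in the sources used here. Whether reads of genes overlapping on opposite strands were counted apart is therefore not known. The deposited tables hold signal, read counts per gene after that normalization, with 0 columns left without a sample. In each library 100% of the values were whole multiples of 1 read within 0.01, and reads were recovered from them. The value of 1 read lay nearest 1 in the first libraries of PKR siRNA 2 (0.9947) and 800 nM C16 (1.009). Groups came from the sample titles. Whether replicates were separate cultures is not stated, so p-values measure the spread between libraries, which differed by more than sampling noise in 18 of 18 replicate pairs (chi-square test). Chi-square per degree of freedom ran from 1.03 to 1.63 over the pairs, with a median of 1.12, where 1 is sampling noise alone.

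Genes averaging 10 or more normalized counts were tested with limma 3.58.1 in R 4.3.3 (trend, two-sided) on log2(normalized count + 1), with the 9 libraries of a table in 1 fit and Benjamini-Hochberg adjustment over all genes of the table. The scale understates changes of genes with few reads. A gene was called at an adjusted p-value under 0.05 and over 1.5-fold, the thresholds of the study. Single members also had an exact permutation test. The script was tested on simulated data. Alternatives were a pseudocount of 0.5 or 5, testing all genes or those averaging 30 or more, rescaling by median of ratios, fitting just the 2 groups at hand, blocking on the replicate number, leaving out each library, and edgeR 4.0.16 (quasi-likelihood) and DESeq2 1.42.0 on the recovered reads. On those reads edgeR called 2265 genes with PKR siRNA 1, 2557 with PKR siRNA 2, 1317 at 400 nM and 2654 at 800 nM. The members and gene lists were chosen with earlier results of these data known, so no list was tested. Values of every library are given for members called in at least 2 of the 4 comparisons with the own control, or called in any with a log2 fold change beyond 1; of other pathway genes up to 2 in each direction are named per treatment, except for 1 that is not reported here, and other names were chosen after their values were seen. The cell type list also planned a share of mitochondrial transcripts, and 0 genes named MT- were listed.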

Additional observations from a re-analysis of the deposited data

Results flagged for a closer look

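In 9 members all 3 libraries lay on one side of the controls with PKR siRNA 1 and on the other side with PKR siRNA 2, and the direct comparison of the siRNAs passed an adjusted p of 0.05 (limma, all genes of the table). These were 31% of the 29 members tested, beside 11.7% of all 10593 genes tested. The log2 difference, PKR siRNA 2 minus PKR siRNA 1, was -1.63 for PHGDH, -1.56 for SHMT2, -1.07 for GOT1, -0.93 for GPT2 and -0.42 for GOT2, and it was 3.31 for ASS1, 2.01 for GLUL, 1.43 for SLC38A2 and 0.66 for GLUD1. PHGDH and ASS1 passed both thresholds against the control with each siRNA, in opposite directions. GOT2 differed by less than 1.5-fold. EIF2AK2, the target of both siRNAs, did not pass the test between them, although all its PKR siRNA 2 libraries lay below all its PKR siRNA 1 libraries.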

How the results depend on the processing

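Of the 60 calls on members over the 6 comparisons, 9 were lost under at least 1 alternative that still tested the gene. A further 8 were gained, and 0 changed direction. Calls dropped because a gene was no longer tested are not among the 9. With a minimum mean of 30, 159 of the 177 member values were still tested. The replicate numbers did not pair the libraries (same-numbered libraries correlated from -0.05 to 0.03 in their deviations from the group means, and not every library correlated best with its own number), and with a replicate block each of the 177 member values kept its side of the thresholds, with 7 members up and 4 down for PKR siRNA 1. No scaling moved the median of all genes by over 0.1 on the log2 scale. With a minimum mean of 30 no member fell at either C16 dose (0 and 0), since ASS1 was then not tested. With edgeR 1 member (BCAT1) was higher at 800 nM than at 400 nM, and leaving out single libraries gave 0 to 1 higher and 0 to 1 lower. The median log2 fold change of the members was 0.0571 with DESeq2 for PKR siRNA 2, and without single libraries it ran from 0.16 to 0.29 for PKR siRNA 1, from -0.0102 to 0.0601 for PKR siRNA 2, from -0.20 to -0.12 for PKR siRNA 2 against PKR siRNA 1 and from -0.20 to -0.0654 between the doses. With pseudocount 5 the calls of SHMT1 with PKR siRNA 1 (-0.57) and GPT2 with PKR siRNA 2 (-0.54) were lost, and with DESeq2 those of GPT2 with PKR siRNA 2 (adjusted p = 0.0528), BCAT1 at 400 nM (adjusted p = 0.0516) and SLC36A1 at 400 nM (adjusted p = 0.0817); the cause was not tested.

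The 15 member values that changed direction were all uncalled, as was EIF2AK2 at 800 nM. Between 800 nM and 400 nM, SLC36A1 (-0.01) was 0.012 with median-of-ratios rescaling, 0.0032 with edgeR and 0.0115 with DESeq2, and SHMT1 (-0.06) was 0.0036 with DESeq2. Leaving out single libraries gave with PKR siRNA 1 -0.049 to 0.12 for ALDH18A1, with PKR siRNA 2 -0.0634 to 0.17 for BCAT2, -0.14 to 0.12 for SLC36A1, -0.047 to 0.13 for SLC6A9, -0.0051 to 0.10 for SLC3A2 and -0.0949 to 0.039 for MTHFD1L, at 400 nM -0.048 to 0.13 for BCAT2, -0.0692 to 0.0721 for PSPH, -0.016 to 0.18 for ALDH18A1 and -0.0215 to 0.0733 for GOT2, at 800 nM -0.14 to 0.15 for GLUL, -0.0507 to 0.0686 for EIF2AK2 and -0.11 to 0.013 for PYCR1, between 800 nM and 400 nM -0.49 to 0.15 for ASS1, -0.33 to 0.23 for SHMT1 and -0.0917 to 0.14 for SLC36A1. At this depth, genes with few reads such as ASS1 and SLC6A9 carry the widest intervals.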
